A study of Homo sapiens with 12 samples.

Results

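The response to lipopolysaccharide (LPS) of adipocytes in which the long intergenic non-coding RNA linc-ADAIN was knocked down (linc-ADAIN KD) was read from 6 of the 12 RNA-seq samples of the series, chosen by their labels alone. These were 3 samples of linc-ADAIN shRNA adipocytes given LPS at 100 ng/mL for 4 h and 3 samples of linc-ADAIN shRNA adipocytes without LPS. The other 6 samples, scramble shRNA with and without the same LPS treatment and 3 of each, were used only to ask whether the response in KD differed from that of the scramble control. All cells were ASC52telo, a human adipose stromal cell line immortalized with hTERT, infected with a lentivirus that carries an shRNA and the green fluorescent protein ZsGreen, and sorted as a pool of ZsGreen-positive cells. All were taken at day 14 of differentiation in media that held insulin (1.7 µM) and dexamethasone (1 µM), a synthetic glucocorticoid, to the end, with IBMX and rosiglitazone in the first stage. The model is thus 1 cell line and 1 hairpin against linc-ADAIN, and the samples of a group are replicates of 1 experiment, so that p-values measure the spread among those replicates. How far the hairpin lowered linc-ADAIN was not analysed here.

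LPS, a component of the outer membrane of Gram-negative bacteria, is presented by CD14 and MD-2 to the receptor TLR4. The adaptors MyD88 and TRIF then activate kinases that free NF-κB from its inhibitors and switch on AP-1 and interferon regulatory factors. Adipocytes and their precursors carry this receptor and answer it with chemokines, IL-6 and acute-phase proteins, and inflammatory signals are known to lower genes of lipid synthesis in fat cells. Many early NF-κB targets encode inhibitors of NF-κB, which close a feedback loop.

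The values were estimated counts per gene, which totalled 28381782 to 50533430 per KD sample on named genes. Levels are given as CPM, counts relative to the scaled total of the sample, in the order of replicates 1, 2 and 3. Gene positions are those of GENCODE release 44 (GRCh38). Levels depend on transcript length and are compared only for the same gene. Log2 fold changes are of KD with LPS over KD without LPS, each with its standard error (SE), and adjusted p-values come from edgeR's quasi-likelihood test over all genes tested. A gene rose or fell when its adjusted p was under 0.05, and changed by 2-fold when its fold change was also at least 2. Since RNA was taken from whole cultures, fewer cells of a type and less RNA per cell cannot be told apart. Within the KD groups the samples correlated at 0.993 (log2 of CPM plus 1).

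Of 16169 genes tested in KD, 363 changed by 2-fold with LPS, which is 2.25% of those tested. Among them 210 were higher (1.3% of genes tested) and 153 were lower (0.946%). Without the fold criterion, 860 genes rose (5.32%) and 975 fell (6.03%), and the median log2 fold change of all genes tested was 0.0099. Counts of list members that rose or fell, given below, are to be read beside these 2 shares. The samples of KD and KD with LPS did not overlap in CPM for 357 of the 363 genes. Since the same samples chose these genes, that count is a description and adds no support. Leaving out any of the 6 samples in turn gave 336 to 367 changed genes.

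NF-κB letters in promoters of genes that rose are shown first, because the 6 neutrophil-attracting CXC chemokines share them. Promoters were taken as the 300 bases from 250 before to 50 after the RefSeq start site (GRCh38.p14), and were at hand for 154 of the 210 genes that rose by 2-fold, 111 of the 153 that fell and 12020 of the genes tested. The letters GGANNTTCC, a core of NF-κB sites, were searched on both strands. They stood in 13.6% of the promoters of genes that rose by 2-fold, in 3.60% of those of genes that fell, in 4.66% of those of genes tested and in 4.59% of all 27305 RefSeq promoters. All 6 of the neutrophil-attracting CXC chemokines held them between 69 and 91 bases before the start, in the same letters. The 21 genes that rose by 2-fold and held them included no CC or CX3C chemokine. How many of those chemokines had a promoter at hand was not counted. The windows of 39 bases around the match are given 5′ to 3′ on the strand of the gene, with the match in capitals. They were chosen after the motif search had been seen.
CXCL1 (chr4:73869300-73869338, plus strand): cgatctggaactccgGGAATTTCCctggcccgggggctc
CXCL2 (chr4:74099249-74099287, minus strand): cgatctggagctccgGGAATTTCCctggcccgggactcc
CXCL3 (chr4:74038744-74038782, minus strand): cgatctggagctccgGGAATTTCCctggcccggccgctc
CXCL5 (chr4:73998744-73998782, minus strand): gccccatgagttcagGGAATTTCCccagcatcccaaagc
CXCL6 (chr4:73836574-73836612, plus strand): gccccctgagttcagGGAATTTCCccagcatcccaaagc
CXCL8 (chr4:73740463-73740501, plus strand): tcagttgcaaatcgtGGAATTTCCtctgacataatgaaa
IL6 (chr7:22727113-22727151, plus strand): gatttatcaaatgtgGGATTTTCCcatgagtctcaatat
ICAM1 (chr19:10270919-10270957, plus strand): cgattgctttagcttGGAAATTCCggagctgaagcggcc
NFKBIA (chr14:35404807-35404845, minus strand): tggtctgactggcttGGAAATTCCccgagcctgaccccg
TNFAIP3 (chr6:137867177-137867215, plus strand): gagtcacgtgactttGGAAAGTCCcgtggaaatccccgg
Outside the match, CXCL5 and CXCL6 were identical at 29 of 30 bases and CXCL1 and CXCL3 at 27, while CXCL8 was identical to any of the other chemokines at 10 at most. The match of ICAM1 and NFKBIA holds the same letters as the chemokines, read on the opposite strand, while IL6 and TNFAIP3 hold other versions.

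The AP-1 letters TGANTCA, which read the same on both strands, stood in 9.09% of the promoters of genes that rose by 2-fold, 11.7% of those of genes that fell, 4.94% of those of genes tested and 7.76% of all promoters. The promoters of 6 genes were read by a set rule, those with the largest rises among genes with at least 50 counts on average over the KD samples and a RefSeq promoter. Of the 12 largest rises named below, 8 had a RefSeq promoter, none with NF-κB letters and 3 with AP-1 letters. PI3 and CSF3 were among those without a promoter. CXCL10, which had fewer counts, held NF-κB letters. By the fit its log2 fold change of 8.54 was below that of ELF3 (8.82) and above those of the others of the 6. CXCL10 and ELF3 had 0 and 2 counts over the KD samples without LPS, so their fitted sizes and order are uncertain. ELF3, GIMAP8 and TNFAIP2 held neither motif in this window, while IL23A, IL1A and TNFAIP6 held AP-1 letters and no NF-κB letters. These 3 are printed whole, with the AP-1 letters in capitals.
IL23A (chr12:56338634-56338933, plus strand): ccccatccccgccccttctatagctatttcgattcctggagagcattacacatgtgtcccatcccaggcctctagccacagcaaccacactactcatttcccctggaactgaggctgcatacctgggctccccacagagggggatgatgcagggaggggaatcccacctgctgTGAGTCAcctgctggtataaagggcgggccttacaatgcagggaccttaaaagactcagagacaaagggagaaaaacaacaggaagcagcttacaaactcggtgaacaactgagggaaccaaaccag
IL1A (chr2:112784444-112784743, minus strand): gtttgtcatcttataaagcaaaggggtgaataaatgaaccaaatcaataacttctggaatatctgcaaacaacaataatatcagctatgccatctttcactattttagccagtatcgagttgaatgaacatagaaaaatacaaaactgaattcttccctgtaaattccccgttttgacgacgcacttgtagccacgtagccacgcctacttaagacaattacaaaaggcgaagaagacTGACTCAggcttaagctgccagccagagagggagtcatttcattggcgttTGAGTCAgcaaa
TNFAIP6 (chr2:151357342-151357641, plus strand): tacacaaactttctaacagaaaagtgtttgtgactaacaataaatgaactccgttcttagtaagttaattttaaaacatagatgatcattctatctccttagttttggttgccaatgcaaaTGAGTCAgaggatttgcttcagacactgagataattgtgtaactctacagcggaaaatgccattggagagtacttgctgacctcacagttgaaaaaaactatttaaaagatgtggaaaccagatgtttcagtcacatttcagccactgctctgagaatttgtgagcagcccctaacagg
A match is a description of the letters in this window and not of binding.

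Of 21 genes of the LPS receptor and its adaptors, 5 rose and 1 fell, with a median log2 fold change of 0.15. The 2 that rose by at least 2-fold were the kinases MAP3K8 (1.72) and IRAK2 (1.29), and for both every sample with LPS lay above every sample without. TLR4, the receptor itself, was at 12.4, 13.4 and 15.2 CPM in KD and 12.6, 18.8 and 16.7 CPM with LPS, and the groups overlapped, with a log2 fold change of 0.23 (SE 0.16, adjusted p = 0.43).

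All 5 NF-κB subunits rose, 4 of them by at least 2-fold, and the median of the list was 1.67. REL, the proto-oncogene member, went from 23.4, 18.7 and 14.9 CPM to 87.8, 81.2 and 85.2 CPM, a log2 fold change of 2.16 (SE 0.14, adjusted p = 6.4e-08). NFKB2, the precursor of p52, rose by 2.00 and NFKB1, the precursor of p50, by 1.67 on the log2 scale. RELB rose by 1.01 (adjusted p = 5.8e-05). RELA, the p65 subunit, had the smallest rise of the 5 at 0.36 (adjusted p = 0.016), and its adjusted p passed 0.05 without KD replicate 1, KD with LPS replicate 2 or KD with LPS replicate 3, reaching 0.096.

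Of 15 genes listed as NF-κB feedback regulators, 12 rose and none fell, 9 by at least 2-fold, and the list's median was 1.46. The list is not limited to inhibitors, since it holds NFKBIZ, BCL3, BIRC2 and BIRC3. NFKBIA, which encodes IκBα, went from 129.8, 114 and 109.7 CPM to 279, 287 and 242 CPM. TNFAIP3, the ubiquitin-editing enzyme A20, went from 85.3, 92.5 and 78.9 CPM to 419, 385 and 399.9 CPM. Their log2 fold changes were 1.19 (SE 0.089, adjusted p = 3.9e-07) and 2.23 (SE 0.081, adjusted p = 1.6e-10), and for both every sample with LPS lay above every sample without. On the log2 scale ZC3H12A, the RNase Regnase-1 that degrades cytokine mRNAs, rose by 2.71, TNIP3, a partner of A20, by 3.42, and BIRC3, a ubiquitin ligase of the TNF receptor, by 2.05. SOCS3, NFKBIB and TNIP2 did not pass the test, with SOCS3 at -0.16 (adjusted p = 0.61).

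All 6 neutrophil-attracting CXC chemokines rose by at least 2-fold, with a median log2 fold change of 2.04. CXCL8, which encodes IL-8, was at 427, 438 and 436 CPM in KD and 1516, 1439 and 1740 CPM with LPS, a 3.61-fold rise (log2 1.85, SE 0.076, adjusted p = 5.6e-10). CXCL1 went from 141, 132 and 136 CPM to 619, 614 and 628 CPM, or 4.55-fold. The spread within each group was small beside the distance between the groups for both genes. CXCL5 had the smallest rise of the 6, from 612, 738 and 642 CPM to 1359, 1355 and 1561 CPM, or 2.15-fold.

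Of 12 CC and CX3C chemokines, 9 rose, all 9 by at least 2-fold, and none fell, with a median of 2.83. CCL2, the monocyte attractant MCP-1 (chr17:34255274-34257208), was at 144, 120.2 and 131 CPM in KD and 993, 961 and 1044 CPM with LPS, a 7.59-fold rise (log2 2.92, SE 0.082, adjusted p = 1.6e-11). CCL20, a ligand of CCR6, went from 42.3, 36.3 and 29.6 CPM to 441, 427 and 484 CPM, or 12.5-fold. CCL5, also called RANTES, was low in KD at 1.24, 1.3 and 0.988 CPM and reached 19.3, 24.5 and 23.7 CPM, or 19-fold. All samples with LPS lay above all samples without for these genes. CX3CL1, or fractalkine, rose by 3.49 on the log2 scale, CCL8 by 2.74, CCL7 by 2.60 and the eotaxin CCL11 by 1.79. CCL4 had no count in any KD sample and 46, 51 and 44 counts with LPS, at least 55.0-fold higher than a floor of 3 counts over the group. Of 3 interferon-type CXC chemokines 2 were tested and 1 rose. That was CXCL10, which had no count in KD and 16, 82 and 36 counts with LPS, at least 52.3-fold higher than that floor.

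Of 25 cytokines and growth factors, 10 rose and 5 fell, with a median of 1.04. IL6 (chr7:22725884-22732002) was at 92.7, 95.2 and 81.3 CPM in KD and 499, 486 and 538 CPM with LPS, a 5.66-fold rise (log2 2.50, SE 0.084, adjusted p = 5.9e-11). IL1B (chr2:112829751-112836816) went from 11.6, 8.78 and 12.5 CPM to 116, 125 and 174 CPM, or 12.6-fold. CSF3, the granulocyte growth factor G-CSF (chr17:40015361-40017813), went from 1.07, 0.798 and 0.988 CPM to 54.3, 60.8 and 56.2 CPM, or 60.7-fold. In all 3 genes every sample with LPS lay above every sample without, and IL1B varied most among the samples with LPS. LIF rose by 1.84, TSLP by 2.07, FGF2 by 1.33, CSF1 by 1.05 and EREG, a ligand of the EGF receptor, by 1.04 on the log2 scale. IL1A was at 0.807, 0 and 0.988 CPM in KD and 9.36, 10.4 and 14.7 CPM with LPS, and IL23A at 0.259, 0.167 and 0.0741 CPM and 3.68, 2.93 and 4.08 CPM. TNF was near the limit of detection, with 8, 1 and 3 counts in KD and 15, 4 and 19 with LPS, and a difference was not detectable at this depth (log2 1.86, SE 1.43, adjusted p = 0.49).

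The factors that fell included the antagonist of the IL-1 receptor. IL1RN went from 98.3, 79.4 and 77.1 CPM to 25.4, 23.6 and 32.3 CPM, 3.14-fold lower, while the agonists IL1A and IL1B rose. IL11 fell (log2 -1.27), as did IL33 (-0.85) and VEGFA (-0.83). All samples with LPS lay below all samples without in these 4 genes.

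**Figure D1:**
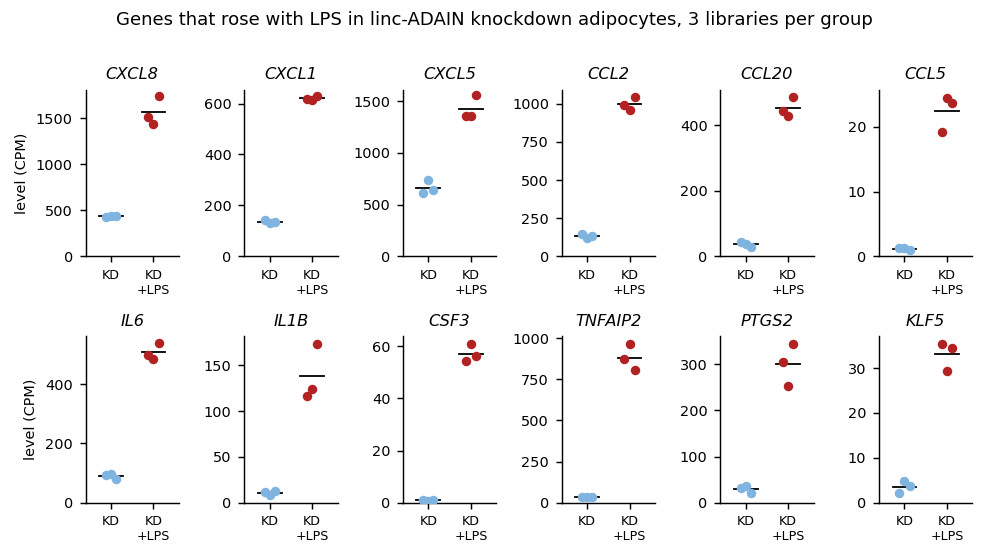
Levels (CPM, linear axes from 0) of 12 genes that rose with LPS, in the 3 linc-ADAIN KD samples (blue) and the 3 linc-ADAIN KD samples with LPS (red); points are samples and the black line is their mean. In every panel all red points lie above all blue points, which for genes among the 12 largest rises was a condition of their choice.

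The 12 largest rises with at least 50 counts on average began with genes that were almost silent without LPS. PI3, the elastase inhibitor elafin (chr20:45174902-45176544), had no count in KD and 281, 281 and 185 counts with LPS, at least 291-fold above the floor of 3 counts over the group. ELF3, an epithelial ETS factor, had 0, 0 and 2 counts in KD and 289, 398 and 244 with LPS, a ratio of 545 with an exact 95% counting interval of 150 to 4506. GIMAP8, a GTPase of the immunity-associated family, went from 0.605, 0.167 and 0.42 CPM to 9.17, 10.3 and 15.4 CPM. For these genes the size of the fold rests on few counts, and intervals and floors cover counting error only. Of the genes with a higher level, TNFAIP2 (chr14:103121476-103137439) went from 36.6, 32.6 and 35.2 CPM to 874, 964 and 805 CPM, or 25.3-fold (log2 4.66, SE 0.091, adjusted p = 3e-13). TNFAIP6, which encodes the hyaluronan-binding protein TSG-6, went from 46.9, 44.5 and 35.6 CPM to 783, 729 and 962 CPM, or 19.5-fold. C15orf48 was at 0.198 to 0.446 CPM in KD and at 4.13 to 5.87 CPM with LPS. The other 6 of the 12 were CSF3, IL23A, IL1A, CCL5, IL1B and CCL20.

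Of 7 adhesion molecules tested 4 rose, 2 by at least 2-fold. ICAM1 went from 28.1, 26.4 and 25.9 CPM to 131, 156 and 125 CPM and VCAM1 from 4.47, 1.75 and 1.68 CPM to 14.5, 18.5 and 19 CPM, log2 fold changes of 2.36 (SE 0.099, adjusted p = 7.1e-10) and 2.74 (SE 0.31, adjusted p = 2.9e-05). Both are ligands of leukocyte integrins. Of 11 prostaglandin synthesis genes 3 rose and 3 fell. PTGS2, the inducible cyclooxygenase COX-2, went from 31.2, 35.8 and 21.8 CPM to 305, 253 and 344 CPM, or 10.1-fold, and PTGES, the terminal synthase of prostaglandin E, rose by 0.90 on the log2 scale. PTGS1, the constitutive cyclooxygenase, fell by 0.73 and the prostacyclin synthase PTGIS fell by 0.59 on the log2 scale.

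Of 18 acute-phase and innate defence genes tested, 7 rose and none fell, and 11 did not pass, with a median of 0.33. CFB, complement factor B, went from 11.3, 11.1 and 10.7 CPM to 106, 109.6 and 94 CPM, or 9.35-fold. SOD2, the mitochondrial superoxide dismutase, went from 2080, 2188 and 1876 CPM to 6212, 5958 and 5841 CPM, or 2.93-fold. PTX3, the long pentraxin, went from 3604, 3781 and 3500 CPM to 7692, 7754 and 7722 CPM, or 2.13-fold. Complement C3 was at 0.088 (adjusted p = 0.56) on the log2 scale.

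Of 22 interferon-stimulated genes tested, 8 rose and 1 fell, with a median of 0.35. The larger rises were those of IRF1 (1.98) and of the guanylate-binding proteins GBP1 (1.64), GBP2 (1.99) and GBP3 (1.65). GBP2 was at 17.4, 15.2 and 13.8 CPM in KD and 60.7, 59.97 and 64.4 CPM with LPS. DDX58, the RNA sensor RIG-I, rose by 1.05 and IFIT3 by 0.90. IRF7 (1.14, adjusted p = 0.024) and STAT2 (0.32, adjusted p = 0.036) rose as well, and OAS1 was the member that fell (-0.59, adjusted p = 0.012). The call was lost for IRF7 without KD replicate 2 or KD with LPS replicate 2 or 3 (adjusted p up to 0.14), for OAS1 without KD replicate 1 or KD with LPS replicate 3 (up to 0.053), and for STAT2 without KD replicate 1 or 3 or KD with LPS replicate 1 or 2 (up to 0.13). The 13 that did not pass included IFIT1 at 0.31 (adjusted p = 0.75) and MX1 at -0.23 (adjusted p = 0.84).

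The immediate-early and stress transcription factors split evenly, with 9 of 23 higher and 9 lower, 4 and 2 of them by at least 2-fold. KLF5, a Krüppel-like factor of early adipogenesis (chr13:73054976-73077541), went from 2.22, 4.85 and 3.75 CPM to 35.4, 29.4 and 34.5 CPM, or 9.06-fold (log2 3.18, SE 0.22, adjusted p = 1.4e-07). CEBPD, a C/EBP factor of both adipogenesis and the acute phase, went from 62.2, 58.1 and 53.7 CPM to 221, 256 and 210.1 CPM, or 3.95-fold. NR4A3 rose by 1.39 and ATF3 by 1.08 on the log2 scale. Against these, EGR2 went from 21.9, 20.7 and 25.8 CPM to 8.54, 6.63 and 9.98 CPM and FOSB from 79, 63.2 and 55.2 CPM to 36.1, 18.5 and 32.4 CPM, log2 fold changes of -1.45 (SE 0.17, adjusted p = 3.6e-05) and -1.18 (SE 0.20, adjusted p = 0.00092). EGR1 was at -0.995 (adjusted p = 0.00013), IER2 at -0.72 (adjusted p = 0.0006) and MYC at -0.47 (adjusted p = 0.0007). Growth factors induce these genes within minutes, and samples were taken at 4 h only.

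Of 13 feedback inhibitors of MAP kinases, 1 rose and 6 fell, with a median of -0.41. SPRY2 fell by 1.12 (adjusted p = 2.1e-06) and SPRY4 fell by 0.73 (adjusted p = 3.3e-05) on the log2 scale, and both restrain growth factor receptors. DUSP16, a JNK phosphatase, was the member that rose (1.19, adjusted p = 0.00056).

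In matrix turnover, 6 of 15 genes rose and 5 fell. MMP1, the interstitial collagenase, rose by 1.19 and PLAT, the tissue plasminogen activator, by 1.33. PLAUR, the urokinase receptor, went from 87.3, 78.9 and 105 CPM to 38.4, 40.5 and 47.7 CPM, with no overlap between the groups. TIMP3, an inhibitor of metalloproteinases, was at -1.16 (adjusted p = 6.4e-07) and MMP19 at -1.13 (adjusted p = 2.5e-05).

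Proteins that set mRNA stability were listed because mRNA decay is one of the subjects of the study. Of 18, none rose, 3 fell and 15 did not pass, with a median of -0.14. ELAVL1, which encodes HuR, was at -0.15 (SE 0.085, adjusted p = 0.32) and IGF2BP2 at -0.20 (SE 0.077, adjusted p = 0.12) on the log2 scale. ZFP36, tristetraprolin, which destabilizes cytokine mRNAs, was at -0.78 (SE 0.12, adjusted p = 0.00035), and ZFP36L2 at -0.46 (adjusted p = 0.0012). All samples with LPS lay below all samples without for ZFP36 and ZFP36L2.

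Of 16 genes listed as receptors and ligands of the TNF family or as TNF-induced genes, 5 rose and 2 fell, with a median of 0.36. TNFAIP2, TNFAIP6 and TNFAIP8 (2.77), which are not receptors or ligands of that family, rose by at least 2-fold. The death receptor FAS rose by 0.94 and TNFRSF11B by 0.80 on the log2 scale, and no receptor or ligand changed by 2-fold. TNFRSF12A, the receptor of TWEAK, was at -0.87 (adjusted p = 1.5e-05).

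**Figure D2:**
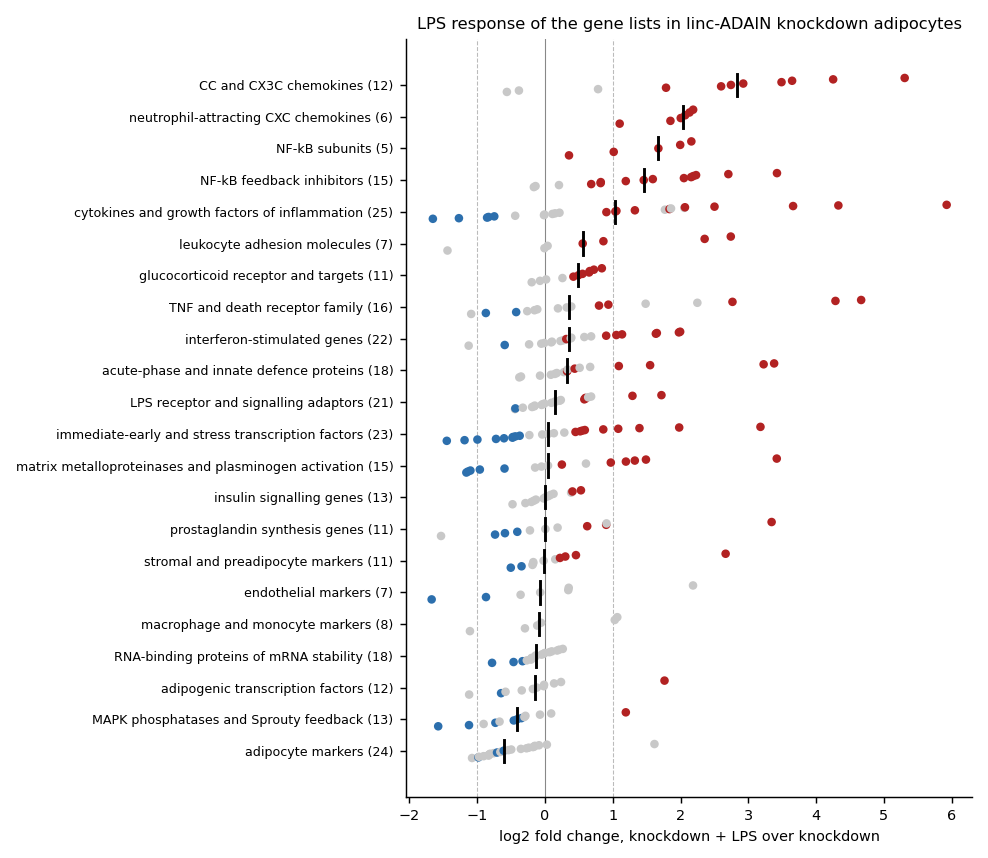
Log2 fold change with LPS in linc-ADAIN KD of each tested member of the gene lists with at least 5 tested members (number tested in brackets); red and blue points rose and fell at an adjusted p under 0.05, grey points did not pass, black bars are medians over all tested members, and dashed lines mark a 2-fold change. Genes with 3 counts or fewer over either KD group are not drawn. The medians of both chemokine lists drawn, the NF-κB subunits, the NF-κB feedback list and the cytokines and growth factors (1.04) lie right of 1. The adipocyte markers have the lowest median, at -0.61.

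Among the 12 largest falls, THBD, the anticoagulant receptor thrombomodulin (chr20:23045633-23049672), went from 82.9, 86.5 and 78.5 CPM to 15.7, 10.04 and 19.3 CPM, 5.54-fold lower (log2 -2.47, SE 0.18, adjusted p = 2.4e-07). CYP26B1, which degrades retinoic acid, went from 2.85, 3.12 and 3.14 CPM to 0.82, 0.581 and 0.246 CPM, 5.45-fold lower. CMKLR1, the receptor of the adipokine chemerin (chr12:108288044-108339317), went from 24.9, 22.2 and 26.4 CPM to 6.96, 4.41 and 3.66 CPM, 4.88-fold lower. GPAT3, an acyltransferase of triglyceride synthesis, went from 18.8, 16.1 and 11.7 CPM to 4.55, 2.95 and 2.88 CPM, 4.47-fold lower. The 12 were chosen among genes whose groups did not overlap, so that all samples with LPS lay below all samples without by the choice. RGS4, a regulator of G protein signalling, was 5.29-fold lower, the neuronal pentraxin NPTX1 5.52-fold, MLPH 4.45-fold, INSYN2A 4.23-fold and INSYN2B 4.04-fold lower. ARC was at -2.23 (adjusted p = 0.033) on the log2 scale, and its adjusted p passed 0.05 without KD replicate 1, KD with LPS replicate 2 or KD with LPS replicate 3, reaching 0.21. TRBV12-4, a T cell receptor segment with close copies, was at -2.03 (adjusted p = 0.0087). Its adjusted p reached 0.063 without KD replicate 3 and 0.12 in the fit of all 12 samples. SMIM11A had the largest fitted fall, from 355, 142 and 103 counts to 0, 7 and 0 counts. It has a near-identical copy, SMIM11B, with 127, 520 and 458 counts in KD and 492, 571 and 373 with LPS, so that its change is uncertain, and without KD with LPS replicate 2 its log2 fold change moved from -6.33 to -10.63.

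**Figure D3:**
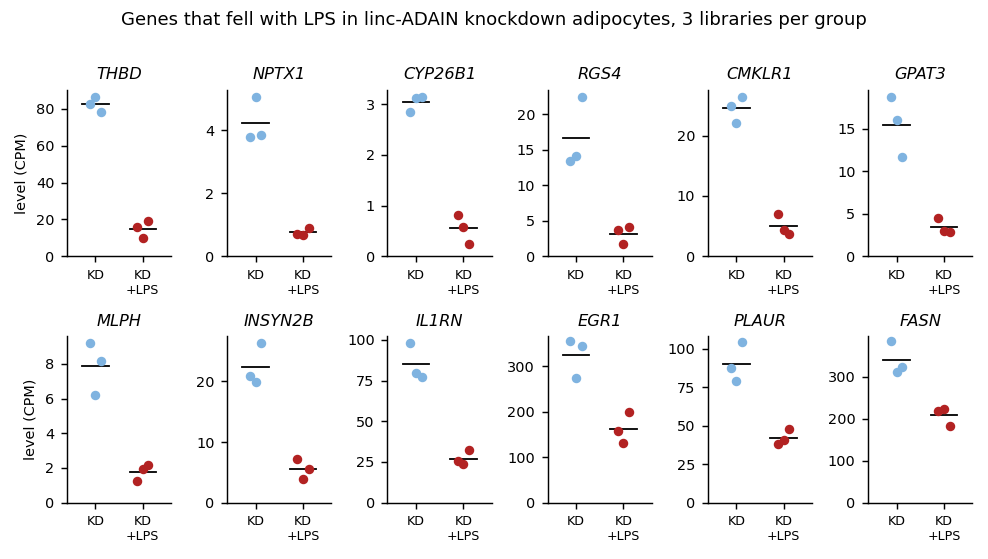
Levels (CPM, linear axes from 0) of 12 genes that fell with LPS, in the 3 linc-ADAIN KD samples (blue) and the 3 linc-ADAIN KD samples with LPS (red); points are samples and the black line is their mean. In every panel all red points lie below all blue points, which for genes among the 12 largest falls was a condition of their choice.

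Of 24 adipocyte markers tested, none rose and 3 fell, and the median log2 fold change was -0.61. Of all genes tested, 5.32% rose and 6.03% fell. FASN, fatty acid synthase, went from 385, 311 and 324 CPM to 218, 224 and 183 CPM, a log2 fold change of -0.71 (SE 0.096, adjusted p = 0.00016). DGAT2, the last step of triglyceride synthesis, went from 102, 83.6 and 57.6 CPM to 47.9, 40.9 and 34.4 CPM and GPAM, its first step, from 251, 271 and 208 CPM to 185, 140.1 and 154 CPM. The KD samples differed widely in their other adipocyte markers. ADIPOQ, which encodes adiponectin, was at 514, 392 and 142 CPM in KD and 352, 240.4 and 129 CPM with LPS, and FABP4 at 886, 681 and 318 CPM and 582, 387 and 264 CPM. The groups overlapped for both genes, with log2 fold changes of -0.54 (SE 0.36, adjusted p = 0.42) and -0.61 (SE 0.29, adjusted p = 0.24). Both passed without KD replicate 3, the sample of KD with the lowest levels (adjusted p = 0.039 for ADIPOQ and 0.012 for FABP4). Both also passed in the fit with replicate number as a block, which is given at the end. The summed level of all 25 markers was 6424, 5083 and 3260 CPM in KD, 4372, 3309 and 2575 CPM with LPS and 9998 to 13923 CPM in scramble control, and its part in the falls of these enzymes was not tested. The summed stromal and preadipocyte markers were at 10808 to 12507 CPM in KD and 12190 to 13824 CPM with LPS, and 4 of 11 tested rose and 2 fell. Of 12 adipogenic transcription factors 1 rose and 1 fell, counts near those shares of all genes tested. STAT5A went from 34.7, 27.7 and 29.9 CPM to 101, 109 and 103 CPM, or 3.4-fold, EBF2 was at -0.65 (adjusted p = 0.0036), and PPARG, the master regulator of adipogenesis, was at -0.58 (SE 0.19, adjusted p = 0.06). PPARG passed in 7 other fits, among them DESeq2 (adjusted p = 0.018), the fit of all 12 samples (0.028) and the fits without KD replicate 3 (0.0025) or KD with LPS replicate 1 (0.032).

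Of 13 insulin signalling genes 2 rose and none fell, with a median of 0.0077, and IRS2 was at 0.53 (adjusted p = 0.0091). Of 11 glucocorticoid receptor genes and targets 7 rose and none fell, with a median of 0.49. TSC22D3, or GILZ, rose by 0.84 (adjusted p = 8.5e-06), KLF9 by 0.72 (adjusted p = 6e-05) and the receptor NR3C1 itself by 0.55 (adjusted p = 0.00031) on the log2 scale. The 4 that did not pass were FKBP5 (-0.19, adjusted p = 0.20), DUSP1 (-0.072, adjusted p = 0.81), ZBTB16 (0.018, adjusted p = 0.98) and SGK1 (0.26, adjusted p = 0.055). The medium held dexamethasone in both groups.

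Most markers of immune cells were at or near 0 in these cultures. Of 13 macrophage and monocyte markers, 8 stayed under 1 CPM in every KD sample, and CD86, AIF1 and TYROBP had no count in any of them. PTPRC, which encodes the leukocyte antigen CD45, was at 0, 0.13 and 0.0988 CPM in KD and 0, 0.172 and 0.316 CPM with LPS. CD163, a macrophage scavenger receptor, was detected at 55.1, 68.2 and 82.5 CPM in KD and 54.4, 65 and 78.4 CPM with LPS, and at 3.15 to 5.38 CPM in scramble control. The summed level of the 13 markers was 90.1 to 121.5 CPM in KD and 83.1 to 110.9 CPM with LPS, and none of the 8 tested passed. All 10 lymphocyte and neutrophil markers stayed under 1 CPM, and 9 of them had no count in the KD samples. The 8 endothelial markers summed to 12.6 to 13.4 CPM in KD and 9.40 to 13.8 CPM with LPS, and 2 of them fell. Those were PECAM1 (-0.87, adjusted p = 0.029) and VWF (-1.67, adjusted p = 0.033), both at low levels. The call of PECAM1 was lost without KD replicate 2 or 3 or KD with LPS replicate 1 or 2, and that of VWF without KD replicate 1 or 2 or KD with LPS replicate 1 or 2, each with an adjusted p of up to 0.11.

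Whether LPS acted differently in KD than in scramble control was tested by the interaction of LPS with shRNA over all 12 samples. In the scramble control 426 of 15920 genes changed by 2-fold (2.68%). Of the changed genes, 171 were shared by both responses, 47.1% of those in KD and 40.1% of those in scramble, and all 171 moved in the same direction, 105 up and 66 down. The interaction passed an adjusted p of 0.05 for 219 of 17173 genes (1.28%), 162 with a more positive and 57 with a more negative response in KD. Under upper-quartile scaling the split was 124 to 73. This number fell to 92 without scramble replicate 2, 116 without KD with LPS replicate 3, 131 without KD replicate 1 and 136 without KD with LPS replicate 2. Among the 363 genes changed in KD, 54 passed the interaction (14.9%). Of the 210 that rose, the difference was positive in 35 and negative in 4, and of the 153 that fell, it was negative in 10 and positive in 5. The KD samples enter both tests, so these shares are a description.

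Several inflammatory genes rose further in KD. IL6 went from 46.5, 55 and 56 CPM to 119, 141 and 136 CPM in scramble, a log2 fold change of 1.34 against 2.50 in KD, and the difference was 1.17 (SE 0.13, adjusted p = 0.00014). CCL2 went from 95.8, 176 and 167 CPM to 412, 539.6 and 551 CPM in scramble, and the difference of the responses was 1.15 (SE 0.23, adjusted p = 0.016). That of CCL2 lost the call without scramble replicate 2, the sample with the highest scramble level (adjusted p = 0.057). PTGS2 differed by 0.96 (SE 0.22, adjusted p = 0.034), a call that held only without scramble replicate 1, KD replicate 2, KD replicate 3 or KD with LPS replicate 2 and reached an adjusted p of 0.11 in the other 8 fits with a sample left out. In the guanylate-binding proteins GBP1 and GBP2 all KD samples without LPS lay below all scramble samples without LPS. GBP1 was at 52.9, 72.6 and 70.3 CPM in scramble and 67.5, 72.2 and 86.4 CPM with LPS, against 25.1, 23.9 and 24.3 CPM in KD and 70.3, 72.4 and 85.2 CPM in KD with LPS, a difference of 1.43 (SE 0.17, adjusted p = 0.00024). GBP2 was at 20.8, 31.1 and 39.1 CPM in scramble and 34.4, 48.4 and 42 CPM with LPS, and differed by 1.54 (SE 0.24, adjusted p = 0.0024).

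The growth factors FGF2 and EREG rose in KD and did not pass the test in scramble, at 0.078 (adjusted p = 0.65) and -0.21 (adjusted p = 0.22) on the log2 scale. FGF2, the basic fibroblast growth factor, was at 382, 424 and 420.1 CPM in scramble and 397, 401 and 485 CPM with LPS, against 332, 396 and 367 CPM in KD and 866, 876 and 1004 CPM in KD with LPS. The difference of the responses was 1.26 (SE 0.13, adjusted p = 0.00011) for FGF2 and 1.26 (SE 0.17, adjusted p = 0.00073) for EREG. FAS, the death receptor, had a difference of 0.79 (SE 0.13, adjusted p = 0.0055). The tests of IL6, FGF2, EREG, FAS, GBP1 and GBP2 kept the call with each of the 12 samples left out in turn.

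Some genes moved in opposite directions. SERPINB2, or PAI-2, went from 291, 301 and 285 CPM to 544, 490.1 and 686 CPM in KD and from 167, 232 and 151 CPM to 95.7, 95.9 and 121 CPM in scramble, a difference of 1.79 (SE 0.20, adjusted p = 0.00015). The samples with and without LPS did not overlap in KD or in scramble. GPAM fell in KD and rose in scramble, from 602, 538 and 678 CPM to 875, 762 and 837 CPM, a difference of -1.05 (SE 0.16, adjusted p = 0.0019). PALMD likewise fell in KD (-1.42) and rose in scramble (0.91), with KD samples that differed widely, at 11.2, 8.21 and 3.48 CPM. Its fall in KD was lost without KD replicate 1 or 2 or KD with LPS replicate 1 or 2 (adjusted p up to 0.098).

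Other genes fell in scramble and had a more positive response in KD. MMP3, stromelysin, was at 615, 542 and 592 CPM in KD and 478, 480.4 and 729 CPM with LPS with overlapping groups, while it went from 98.4, 124 and 83.6 CPM to 26.5, 23.7 and 35.4 CPM in scramble, a difference of 1.78 (SE 0.23, adjusted p = 0.00062). GDNF, a neurotrophic factor (chr5:37812677-37840041), fell by 1.02 in KD and fell by 3.25 in scramble on the log2 scale, with a difference of 2.24 (SE 0.33, adjusted p = 0.0015). XIRP1 differed by 3.45 (SE 0.38, adjusted p = 0.00014), LBH by 2.45 (SE 0.37, adjusted p = 0.0019), and the transcription factor KLF6 by 0.76 (SE 0.11, adjusted p = 0.0015). LBH fell in scramble (-1.89) and was at 0.53 (adjusted p = 0.049) in KD, a rise that was lost without KD replicate 2 or 3 or any 1 of the samples of KD with LPS (adjusted p up to 0.20). TLR4 fell in scramble, from 16.3, 15.1 and 11.5 CPM to 9.05, 7.4 and 7.22 CPM, and differed by 1.09 (SE 0.24, adjusted p = 0.03), a call that held only without scramble replicate 3, scramble with LPS replicate 1, KD replicate 3 or KD with LPS replicate 1 and reached an adjusted p of 0.095 in the other 8. RGS4 differed by 2.07 (SE 0.41, adjusted p = 0.016), which was lost without scramble replicate 2 or KD with LPS replicate 3 (adjusted p up to 0.056).

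Several large differences rested on low levels. DCLK3, a doublecortin-like kinase, went from 0.346, 0.576 and 0.716 CPM to 4.7, 6.11 and 5.27 CPM in KD and from 1.04, 1.24 and 1.35 CPM to 1.87, 2.48 and 2.23 CPM in scramble, with a difference of 2.43 (SE 0.45, adjusted p = 0.01). MMP10, stromelysin-2, was at 1.24, 0.91 and 1.85 CPM in KD and 3.73, 3.72 and 3.76 CPM with LPS, and at 12, 8 and 10 counts in scramble and 2, 0 and 0 with LPS, a difference of 4.76 (SE 0.92, adjusted p = 0.013). The size of that difference rests on few counts and was 7.57 without scramble with LPS replicate 1. CD1D, which presents lipid antigens, differed by -2.24 (adjusted p = 0.02) and the adrenergic receptor ADRA2A by -1.76 (adjusted p = 0.02), and both fell in KD. Both calls were lost without scramble replicate 2, KD replicate 1 or KD with LPS replicate 3, and that of CD1D also without scramble with LPS replicate 1, with adjusted p of up to 0.072 for CD1D and 0.063 for ADRA2A. The fall of CD1D in KD was lost without KD replicate 1 (adjusted p = 0.054).

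CXCL5, SOD2 and NR4A1 had a smaller response in KD, from a higher level without LPS. CXCL5 was at 142, 125 and 112 CPM in scramble and 545, 454 and 514 CPM with LPS, so that its difference was -0.89 (SE 0.14, adjusted p = 0.0024) although its level with LPS was higher in KD. SOD2 went from 834, 1008 and 859 CPM to 4366, 4679 and 4876 CPM in scramble, a difference of -0.81 (SE 0.11, adjusted p = 0.00099). NR4A1, an orphan nuclear receptor, was at 96.1, 85.5 and 67.6 CPM in KD and 104, 106 and 94.4 CPM with LPS against 25.8, 27.8 and 34.9 CPM in scramble and 61.9, 79.6 and 71.4 CPM in scramble with LPS, a difference of -0.98 (SE 0.18, adjusted p = 0.01).

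CMKLR1 fell in both and further in KD, from 75.2, 70.7 and 74.2 CPM to 41.7, 27.4 and 42.7 CPM in scramble, by a difference of -1.31 (SE 0.25, adjusted p = 0.014), which missed the threshold without KD with LPS replicate 2 (adjusted p = 0.053).

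For the other chemokines, and for the NF-κB subunits and feedback regulators except TNIP3, the difference between the responses did not pass. CXCL8 went from 123, 152 and 148 CPM to 436, 427 and 493 CPM in scramble, and its difference was 0.17 (SE 0.13, adjusted p = 0.69). KLF5 went from 0.589, 0.856 and 0.709 CPM to 1.92, 2.77 and 4.64 CPM in scramble, a difference of 1.07 (SE 0.42, adjusted p = 0.31), and IL1B differed by 1.19 (SE 0.38, adjusted p = 0.17). None of the 5 NF-κB subunits passed by this test (edgeR). Of the 15 feedback regulators 1 passed (TNIP3, 1.07), and of the 6 neutrophil-attracting chemokines 1 passed (CXCL5). The call of TNIP3 was lost without scramble replicate 1 or KD with LPS replicate 3, with an adjusted p of up to 0.065. A p above the threshold does not show that the responses were equal.

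**Figure D4:**
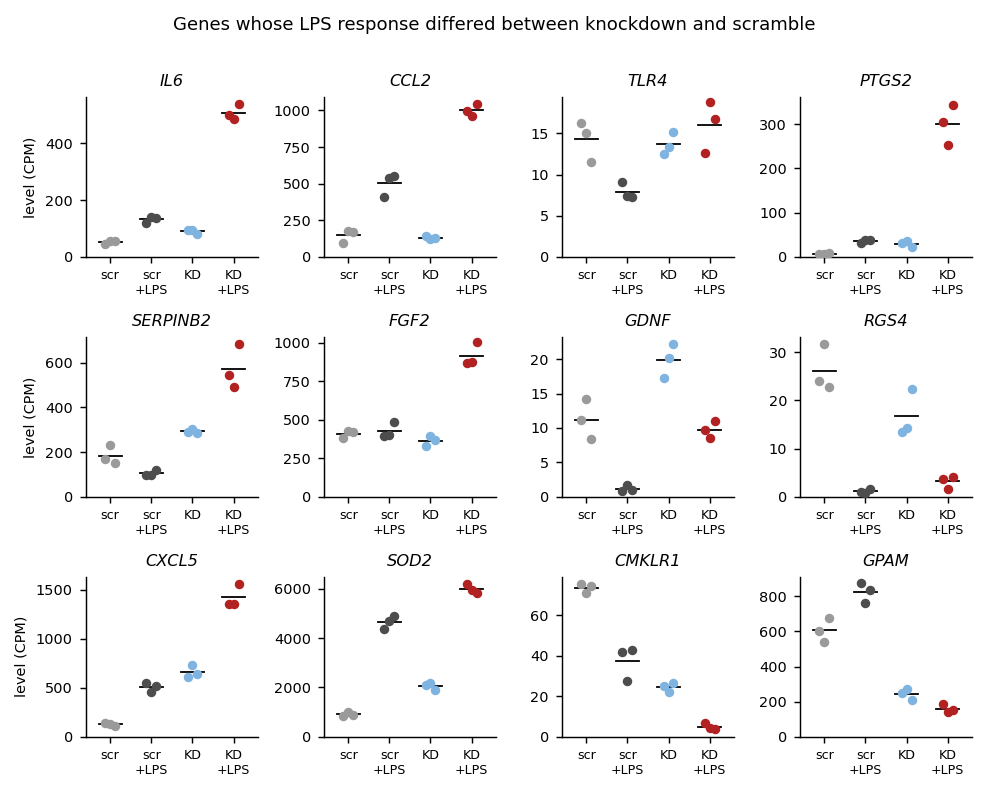
Levels (CPM, linear axes from 0) of 12 genes that passed the interaction test, in scramble (light grey), scramble with LPS (dark grey), linc-ADAIN KD (blue) and linc-ADAIN KD with LPS (red); points are samples and black lines are means of 3. IL6, CCL2 and PTGS2 are highest in KD with LPS, SERPINB2 moves up in KD and down in scramble, and GPAM moves the other way.

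**Figure D5:**
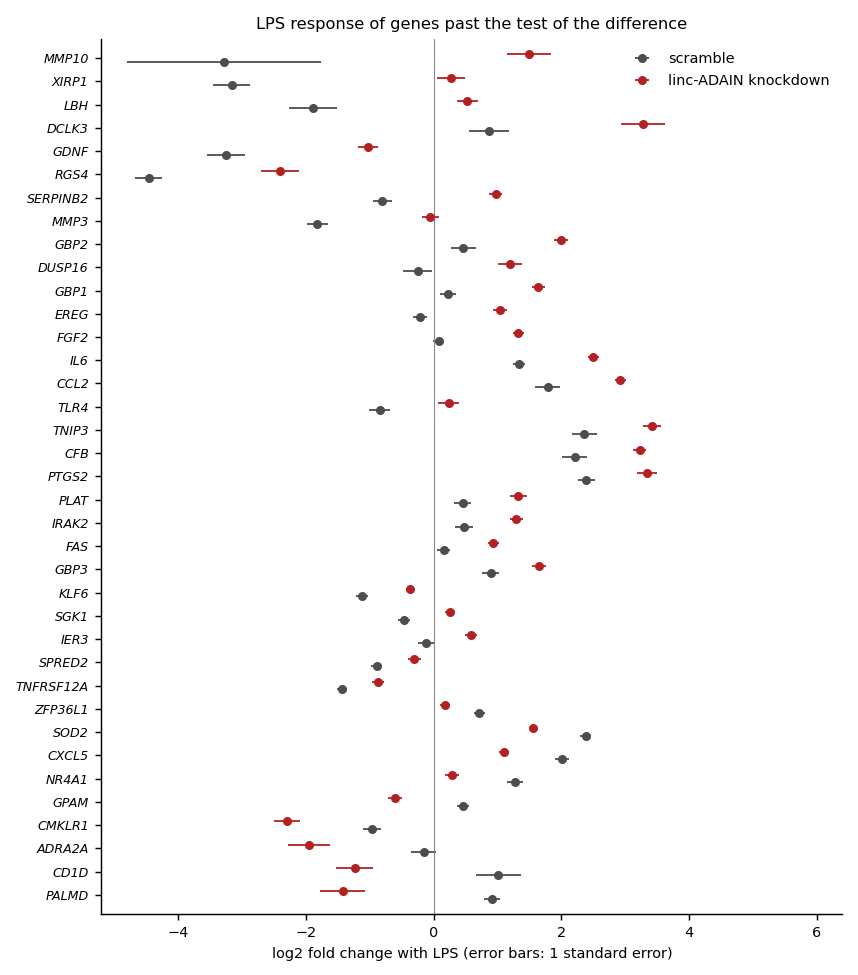
Log2 fold change with LPS in scramble (dark grey) and linc-ADAIN KD (red) for 37 of the named genes that passed the interaction test, with SMIM11A left out; bars are 1 standard error. Genes are ordered from the most positive difference (MMP10, 4.76) to the most negative (PALMD, -2.32).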

How the data were processed

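RNA of 12 samples was sequenced from poly(A)-selected, stranded libraries of adipocytes derived from ASC52telo cells, 3 per group. The authors deposited estimated counts per gene name, made with kallisto 0.44.0 on GRCh38 transcriptomes after demultiplexing with bcl2fastq 2.19, per the methods and the submitters' processing notes, which also name DESeq2 1.32.0. How transcripts were summed to genes was not given in the sources used here. The values were whole numbers and were used as they stood, on 28901 named genes. Counts assigned to a blank name, 0.235% to 0.306% of each sample, were left out. Reads that fit several near-identical genes are divided between them by kallisto, so such genes are uncertain. Totals were 28381782 to 53837400 per sample.

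Counts were scaled by TMM and tested with edgeR 4.0.16 (quasi-likelihood F test, R 4.3.3) on genes with at least 10 counts in total, with Benjamini-Hochberg adjustment over all genes tested. The KD and scramble responses were each fitted on their own 6 samples and the interaction on all 12. The standard error is the size of the log2 fold change divided by the square root of F. CPM came from the scaling over all 12 samples. With 3 samples against 3, an exact two-sided permutation test cannot go below 0.1, so single genes rest on the fit across genes. The procedure was tested on simulated data. Alternatives were DESeq2 1.42.0, 3 other scalings, 2 other filters on low counts, equal depth, 1 fit of all 12 samples, a fit with replicate number as a block, and fits that left out 1 sample at a time.

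Genes were named from 24 lists of 343 genes, from the 12 largest rises and falls in KD among changed genes with at least 50 counts on average and groups that did not overlap, from the 12 largest interactions among genes past that test and changed in either response, and as the subjects of the study (CXCL8, IL6, CCL2, IL1B, TNF and KLF5). The lists and members were chosen with earlier results of these data known. Promoters are RefSeq sequences (GRCh38.p14). Some genes that meet these rules are not reported here.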

Additional observations from a re-analysis of the deposited data

Results flagged for a closer look

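The LPS response of linc-ADAIN KD differed from that of scramble control by the interaction of LPS with shRNA (edgeR's quasi-likelihood test, adjusted p under 0.05) for 38 of the genes named here, 28 with a more positive and 10 with a more negative response in KD. Some of these genes were named for this test, so their number is a description. Differences of the log2 responses (KD minus scramble) are given. The call held with each of the 12 samples left out in turn for MMP10 at 4.76, XIRP1 at 3.45, LBH at 2.45, DCLK3 at 2.43, GDNF at 2.24, SERPINB2 at 1.79 and MMP3 at 1.78. It held likewise for GBP2 at 1.54, GBP1 at 1.43, EREG at 1.26, FGF2 at 1.26, IL6 at 1.17, FAS at 0.79, KLF6 at 0.76 and SGK1 at 0.73. On the negative side it held for SMIM11A at -7.37, whose counts may be split with a copy, PALMD at -2.32, GPAM at -1.05, NR4A1 at -0.98, CXCL5 at -0.89 and SOD2 at -0.81. The sizes for MMP10 and SMIM11A rest on few counts, with ranges of 4.17 to 7.57 and -11.79 to -6.40 over those fits, the far values without scramble with LPS replicate 1 and KD with LPS replicate 2.

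The call was lost with at least 1 sample left out for the other 17, with the highest adjusted p of a gene between 0.053 and 0.15. These were RGS4 at 2.07, DUSP16 at 1.46, CCL2 at 1.15, TLR4 at 1.09, TNIP3 at 1.07, CFB at 1.03, PTGS2 at 0.96, PLAT at 0.88 and IRAK2 at 0.82. They also included GBP3 at 0.77, IER3 at 0.72, SPRED2 at 0.60, TNFRSF12A at 0.57, ZFP36L1 at -0.53, CMKLR1 at -1.31, ADRA2A at -1.76 and CD1D at -2.24. Leaving out scramble replicate 2 ended 15 of these 17 calls, KD replicate 1 and KD with LPS replicate 3 ended 12 each, and each of the other samples ended 4 to 9. Groups of 3 samples were not tested for single samples far from the others.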

How the results depend on the processing

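For the LPS response in KD, the count of changed genes was 355 to 456 under the 9 other settings and 336 to 367 with a sample left out, against 363 (edgeR). For the LPS response in scramble it was 420 to 473 and 331 to 432, against 426. The count for the interaction of LPS with shRNA, 219, depended more on the settings. It was 475 with DESeq2 (306 positive and 169 negative), 431 with no filter on low counts (266 and 165) and 92 to 243 with a sample left out, while the other scalings, filterByExpr and equal depth gave 188 to 213. Leaving out a sample also lowers the number of samples in the fit. Of 199 results on single genes, 158 kept their direction and side of the threshold in every setting. The LPS response of MMP3 in KD, near 0, changed sign to 0.054 without KD with LPS replicate 1 and 0.055 without KD with LPS replicate 2, with a range of -0.28 to 0.055. Of 136 calls in KD, 125 held with every sample left out, and of 38 interaction calls 21 did.

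Replicate numbers were not taken to pair the samples, on the ground of how the deviations of same-numbered samples correlated. The correlations were 0.11, -0.15 and 0.12 between KD and KD with LPS. Between scramble and scramble with LPS they were 0.28, 0.14 and 0.099. In KD not every sample correlated best with its own number, while in scramble every sample did. The summed adipocyte markers were nevertheless lower with LPS in each same-numbered pair of KD samples. With the replicate number as a block, the count was 456 for the LPS response in KD, 473 for the LPS response in scramble and 541 for the interaction of LPS with shRNA (320 positive and 221 negative). In that fit ADIPOQ (-0.46, adjusted p = 4.2e-06), FABP4 (-0.56, adjusted p = 6.1e-10) and PPARG (-0.56, adjusted p = 5e-04) passed in KD, and KLF5 (1.18, adjusted p = 0.046) and IL1B (1.17, adjusted p = 0.00055) passed the interaction. FABP4 (adjusted p = 0.0054) and PPARG (adjusted p = 0.0021) also passed in KD with no filter on low counts. The cause of these differences was not tested.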
